A study of Brassica napus with 14 samples.

Results

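The CESA genes encode the catalytic subunits of cellulose synthase, and their transcripts were followed here from the ovule to the late seed of Brassica napus (oilseed rape). Brassica napus is an allotetraploid crop with an A and a C subgenome, so each Arabidopsis gene usually has several copies. The members are the table's genes whose paired Arabidopsis locus is 1 of the 10 CESA loci, CESA1 to CESA10. There were 45 such copies among 96219 genes, and they belong to 8 loci. CESA9 (AT2G21770) and CESA10 (AT2G25540) have no row in the table used and were not analysed here. Of the 45 copies, 23 reached 1 FPKM in at least 1 stage, 10 were above 0 but never reached 1 FPKM, and 12 were listed at 0 in all 5 stages.

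Each CESA protein spans the plasma membrane and links glucose from UDP-glucose into a cellulose chain, and several CESA proteins of different kinds work together in a rosette-shaped complex. In Arabidopsis, complexes of the growing primary wall hold CESA1, CESA3 and a member of the CESA6-like group (CESA2, CESA5, CESA6 and CESA9). The thick secondary walls of xylem and fibres are made by CESA4, CESA7 and CESA8 instead. CESA2, CESA5 and CESA9 are also known from the Arabidopsis seed coat epidermis, where cellulose made by CESA5 helps to hold the mucilage on the seed.

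RNA came from 14 libraries of cultivar DH12075, with neither a treatment nor a second genotype in the labels. The first stage, OV, was whole ovules at day 0 (3 libraries), and the later stages were whole seeds taken after hand pollination. These were GLOB at day 7, HEART at day 10 and MG at day 28 (3 libraries each), and DS at day 35 (2 libraries). The authors' table gives 1 FPKM value per gene and stage, a read density per transcript length and library size, so levels of different genes can be set side by side. The spread between libraries and their depth are unknown, no difference between stages could be tested, and every value below is the authors' single value or a sum of such values. Copies counted as higher or lower are those whose log2(FPKM + 1) differed by at least 1 between stages, a scale that understates changes of low genes.

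Marker genes of other seed tissues differed widely between stages. BAN, an enzyme of proanthocyanidin synthesis in the inner seed coat, was at 0.707 FPKM in OV, then 185 in GLOB and 248 in HEART, with 106 in MG and 0.0780 in DS, summed over copies. The storage albumin gene SESA4 was at 26.2 FPKM in HEART, 108709 in MG and 832 in DS. Whole ovules and seeds mix many cell types, and fewer cells of a type cannot be told apart from less RNA per cell. The summed FPKM of all genes also differed between stages, with 1511542 in MG as the highest and 446090 in OV as the lowest.

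The CESA family as a whole was most abundant in HEART seeds and least abundant in DS seeds. Summed over the 45 copies it stood at 221 FPKM in OV, then 423 in GLOB and 520 in HEART, with 360 in MG and 109 in DS. As a share of the summed FPKM of all genes the family was at 0.0494% in OV, then 0.0660% in GLOB and 0.0876% in HEART, with 0.0238% in MG and 0.0119% in DS, again highest in HEART and lowest in DS. The sum was 1.92 times as high in GLOB as in OV, and 0.303 times as high in DS as in MG. Of the 23 copies that reached 1 FPKM, 12 had their highest value in HEART, 5 in MG, 4 in DS, 1 in GLOB and 1 in OV. The same count was not made over all genes, so whether these numbers are unusual is not known. CESA3 and CESA1 led in GLOB, HEART, MG and DS, while in OV CESA6 came between them, as the plot of the 8 loci shows. In HEART the CESA3 sum was at or above those of 97.5% of the 21491 Arabidopsis loci in the table, and the CESA4 sum at or above those of 17.9%.

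**Figure D1:**
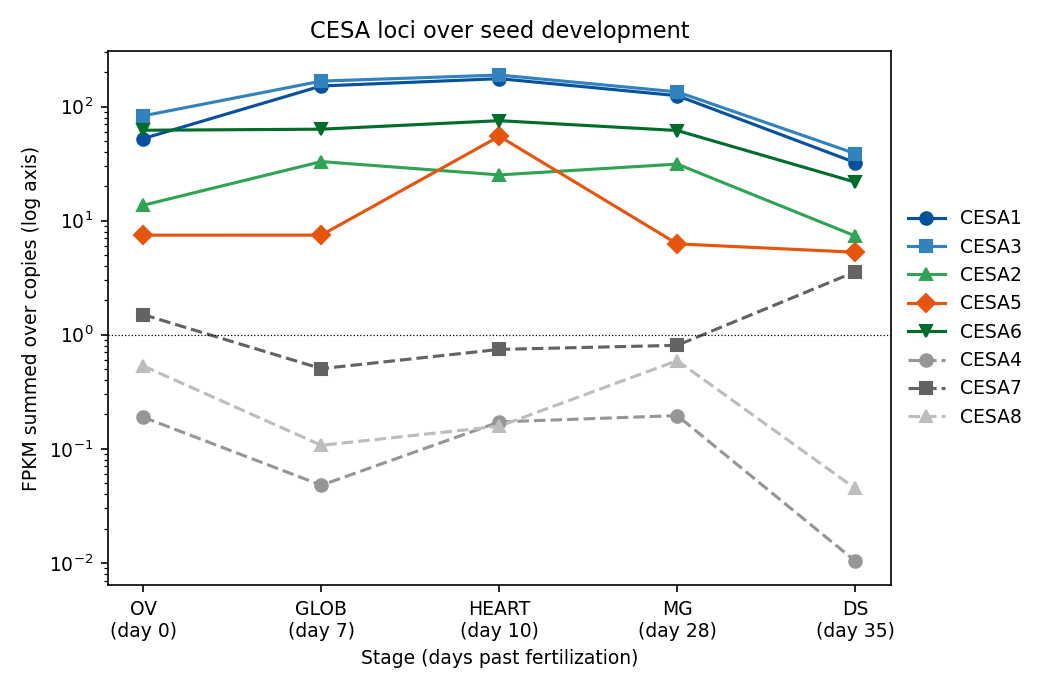
FPKM summed over the copies of each CESA locus (log axis) at the 5 stages, 1 point per locus and stage, with solid lines for the primary-wall loci, dashed lines for the secondary-wall loci and a dotted line at 1 FPKM. CESA1 and CESA3 run together from GLOB onwards, CESA5 stands out at HEART with 54.8 FPKM, and CESA4, CESA7 and CESA8 stay between 0.0104 and 3.56 FPKM.

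CESA1 (AT4G32410), a core subunit of the primary-wall complex, had 4 expressed copies. Its sum was 52.4 FPKM in OV, then 151 in GLOB and 175 in HEART, with 124 in MG and 32.3 in DS. The copies on chromosomes 1 and 11 differed most between young seed and ovule. BnaN01g05330 (chromosome 1, A subgenome) was at 9.64 FPKM in OV, then 66.02 in GLOB and 75.0 in HEART, with 42.8 in MG and 11.9 in DS. BnaN11g06330 (chromosome 11, C subgenome) was at 18.2, 52.1, 53.9, 43.5 and 9.74 FPKM at the same stages. These were 2.66 and 1.47 higher in GLOB than in OV on the log2(FPKM + 1) scale. The other two copies lay lower, with smaller differences between GLOB and OV. BnaN03g53070 (chromosome 3, A) was at 13.4, 18.0, 23.7, 21.2 and 3.58 FPKM from OV to DS, a GLOB minus OV difference of 0.40. BnaN17g51180 (chromosome 17, C) was at 11.1, 15.3, 22.9, 16.9 and 7.07 FPKM, a difference of 0.43. BnaN01g05330 was thus the highest of the 4 copies in GLOB, with 43.6% of the locus, and the lowest in OV, with 18.4%.

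CESA3 (AT5G05170), the other core subunit, was the most abundant locus at every stage. It stood at 82.9 FPKM in OV, then 167 in GLOB and 189 in HEART, with 134 in MG and 38.7 in DS. Of its 8 copies, 5 reached 1 FPKM. BnaN02g01480 (chromosome 2, A) was at 28.4 FPKM in OV and 77.8 in GLOB, then 87.4 in HEART, 64.3 in MG and 24.4 in DS, and was the highest CESA copy of all in HEART. It held 63.0% of the locus in DS, against 34.2% in OV. BnaN03g01850 (chromosome 3, A) was at 25.7, 44.0, 52.5, 17.8 and 1.76 FPKM from OV to DS. BnaN13g02180 (chromosome 13, C) was at 22.9, 37.7, 42.9, 39.5 and 5.28 FPKM. Both were close up to HEART and then parted, with the A copy 1.51 lower in MG than in HEART and the C copy 0.12 lower. BnaN05g31590 (chromosome 5, A) went against the locus, with its highest value, 12.4 FPKM, in MG, against 4.43 FPKM in HEART. It was the only one of the 5 copies above its OV value in DS (6.24 FPKM in DS, 2.93 in OV). BnaN13g07110 (chromosome 13, C) had a listed value of 0 in MG, against 2.78 FPKM in OV.

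**Figure D2:**
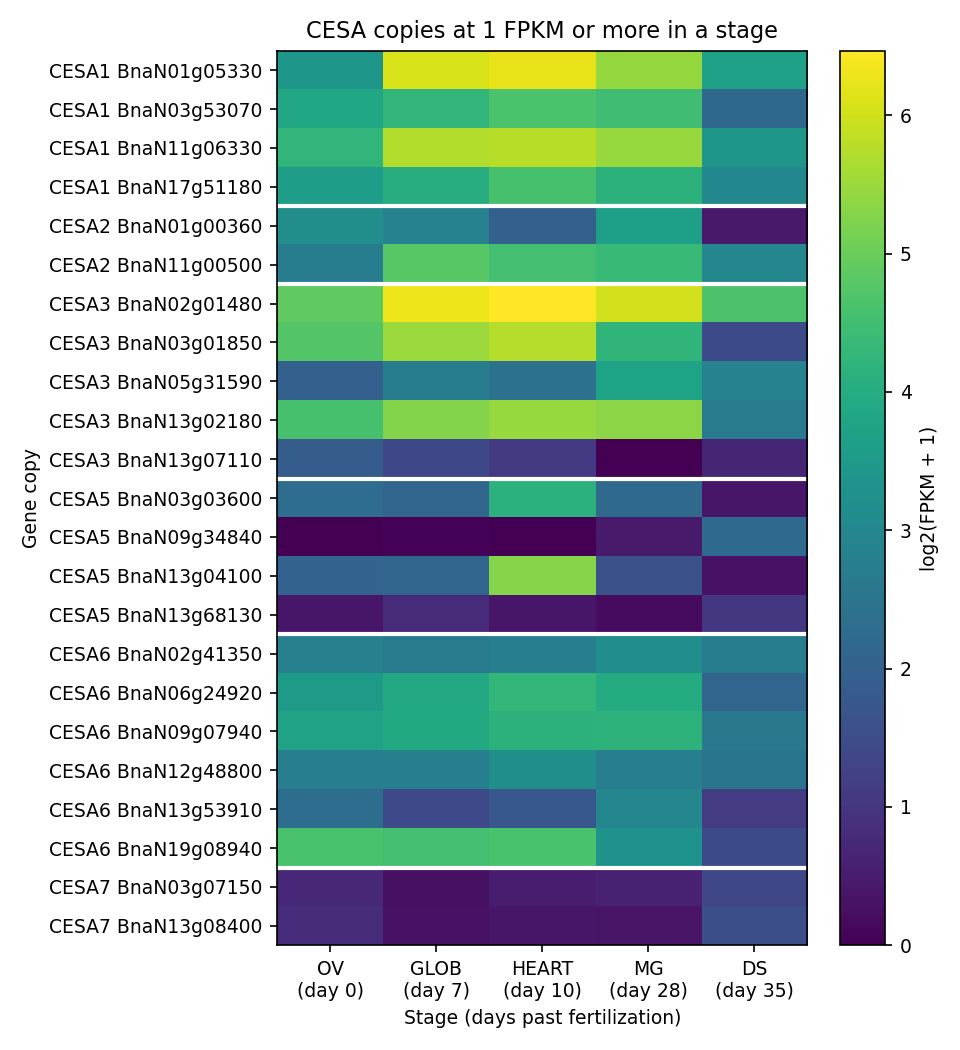
Log2(FPKM + 1) of the 23 CESA copies that reached 1 FPKM in a stage, 1 row per copy and 1 column per stage, grouped by locus between white lines. Most CESA1 and CESA3 rows are brightest in HEART, the CESA5 copies BnaN03g03600 and BnaN13g04100 are bright in HEART alone, and the CESA7 rows are brightest in DS.

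CESA6 (AT5G64740), a partner of the core subunits in primary walls, was the steadiest of the abundant loci up to MG in FPKM as deposited, though with stages at a common sum its GLOB minus OV difference was -0.49 and its MG minus HEART difference -1.61 on the log2 scale (-0.28 as deposited). Its sum was 61.9 FPKM in OV, then 63.3 in GLOB and 75.1 in HEART, with 61.6 in MG and 21.7 in DS. It was spread over 6 copies that reached 1 FPKM, 3 on A and 3 on C chromosomes. The highest in OV was BnaN19g08940 (chromosome 19, C), at 23.2 FPKM in OV and 22.1 in GLOB, then 23.3 in HEART, 9.01 in MG and 1.76 in DS. By DS it held 8.10% of the locus, against 37.5% in OV. BnaN02g41350 (chromosome 2, A) kept to a narrow range, at 6.004, 5.50, 5.75, 7.96 and 5.69 FPKM from OV to DS. Its counterpart BnaN12g48800 (chromosome 12, C) lay between 4.72 and 8.36 FPKM. BnaN09g07940 (chromosome 9, A) was at 5.02 FPKM in DS, against 17.1 in MG. BnaN06g24920 (chromosome 6, A) reached 18.5 FPKM in HEART, and BnaN13g53910 (chromosome 13, C) reached 6.98 in MG.

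CESA2 (AT4G39350), also of the CESA6-like group, had 2 expressed copies with unlike courses. BnaN11g00500 (chromosome 11, C) was at 5.56 FPKM in OV, then 26.6 in GLOB and 22.2 in HEART, with 19.8 in MG and 6.99 in DS. BnaN01g00360 (chromosome 1, A) was at 8.09, 6.30, 2.96, 11.5 and 0.349 FPKM at those stages. The C copy was 2.07 higher in GLOB than in OV, and the A copy 0.32 lower. From HEART to MG the A copy was 1.66 higher, and the C copy 0.16 lower. The C copy held 40.7% of the locus in OV and 80.8% in GLOB, then 88.2% in HEART, 63.3% in MG and 95.2% in DS.

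CESA5 (AT5G09870), the subunit known from Arabidopsis seed coat mucilage, had a single peak in HEART. Its sum was 7.45 FPKM in OV, then 7.46 in GLOB and 54.8 in HEART, with 6.25 in MG and 5.28 in DS. The HEART sum was 7.35 times the GLOB sum 3 days earlier, and the MG sum was 0.114 times the HEART sum. Its copies BnaN13g04100 (chromosome 13, C) and BnaN03g03600 (chromosome 3, A) both had this peak. The C copy was at 3.12 FPKM in OV and 3.31 in GLOB, then 37.9 in HEART, 2.06 in MG and 0.240 in DS. For the A copy the values were 3.9995, 3.31, 16.6, 3.67 and 0.309 FPKM. They were the only 2 CESA copies counted as higher in HEART than in GLOB, by 3.17 and 2.03 on the log2 scale. Of all 49417 genes considered, 4.89% were counted as higher in that step.

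The remaining CESA5 copies did not share the peak. BnaN09g34840 (chromosome 9, A), which the table pairs with no gene of cultivar Darmor, was listed at 0 in OV and HEART, at 0.0377 FPKM in GLOB, 0.383 in MG and 3.70 in DS. It made up 70.0% of CESA5 in DS. BnaN13g68130 (chromosome 13, C) was highest in DS too, at 1.03 FPKM. The other 5 CESA5 copies stayed at or below 0.0795 FPKM at every stage. In the table's gene numbering BnaN13g68130 stands next to BnaN13g68140, a CESA2 copy listed at 0 in all 5 stages.

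Some markers of other tissues also stood high in HEART. The 12 seed coat epidermis markers summed to 161 FPKM in OV, then 332 in GLOB and 403.5 in HEART, with 344 in MG and 225 in DS. SBT1.7 alone made up most of the MG and DS sums, with 238 and 178 FPKM, against 64.5 FPKM in HEART. The largest part of the HEART sum was MYB61, with 177 FPKM, against 24.1 FPKM in MG. The sum is thus not the course of all 12 markers. From GLOB to HEART, 8 of the 40 marker copies considered were higher and 0 lower, where 4.89% and 2.50% of all genes were. In MG, 7 were above and 23 below their HEART values, where 17.4% and 22.4% of all genes were. The markers did not share one course, with 6 of the 12 highest in HEART, and MUM4, TTG2 and CSLA2 had HEART minus GLOB differences of -0.18, -0.19 and -0.36. MUCI21, a xylosyltransferase of mucilage synthesis picked out once its values were known, stood at 0.0831 FPKM in OV, then 2.31 in GLOB and 18.2 in HEART, with 1.53 in MG, and was listed at 0 in DS. ZOU, a regulator of endosperm breakdown and the single endosperm marker, was at 0.0342 FPKM in GLOB, 6.68 in HEART and 0.485 in MG, and listed at 0 in OV and DS. The part of these tissues in the CESA5 peak was not tested.

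The secondary-wall subunits were low, below 1 FPKM at every stage for CESA4 and CESA8, with CESA7 above that in OV and DS. CESA4 (AT5G44030) was at 0.189 FPKM in OV and 0.0479 in GLOB, then 0.172 in HEART, 0.195 in MG and 0.0104 in DS, summed over 4 copies. CESA8 (AT4G18780) was at 0.531, 0.107, 0.158, 0.593 and 0.0449 FPKM over 5 copies. No copy of CESA4 or CESA8 reached 1 FPKM at any stage. CESA7 (AT5G17420) was at 1.499 FPKM in OV, then 0.504 in GLOB and 0.743 in HEART, with 0.807 in MG and 3.56 in DS. In DS its copies BnaN13g08400 (chromosome 13, C) and BnaN03g07150 (chromosome 3, A) were at 1.92 and 1.62 FPKM. In MG they were at 0.267 and 0.510 FPKM, and the C copy alone passed the threshold, at 1.21. The 3 subunits act together in Arabidopsis, yet in DS CESA7 was at 3.56 FPKM while CESA4 and CESA8 were at 0.0104 and 0.0449. The 3 markers of tracheary elements, the water-conducting cells, summed to 48.3 FPKM in OV and 44.6 in GLOB, then 45.3 in HEART, 38.5 in MG and 91.5 in DS. Nearly all of that was the protease gene XCP2, at 91.1 FPKM in DS, while XCP1 was at 0.381 and MC9 was listed at 0. The part of these cells in the CESA7 values was not tested.

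Among consecutive stages, the make-up of the CESA pool differed most between GLOB and OV. CESA1 and CESA3 together were 61.3% of the summed CESA FPKM in OV, then 75.3% in GLOB and 70.0% in HEART, with 72.0% in MG and 65.2% in DS. The CESA6-like loci made up 37.7%, 24.5%, 29.8%, 27.6% and 31.5% at these stages. The secondary-wall loci made up 1.01% in OV and 0.156% in GLOB, then 0.206% in HEART, 0.444% in MG and 3.32% in DS, nearly all of the last from CESA7. These shares are the same under any rescaling by 1 factor per stage. Quantile normalization, which also alters genes within a stage, put CESA1 and CESA3 at 71.9% in HEART and 68.7% in MG. It put them at 65.1% in OV and 62.2% in DS, so that DS and not OV was lowest. The order of HEART and MG, and that of OV and DS, thus depended on it. The ratio of CESA1 to CESA3 was 0.632 in OV, then 0.907 in GLOB and 0.930 in HEART, with 0.927 in MG and 0.835 in DS. Within the CESA6-like group, CESA6 held 48.4% in HEART and 74.6% in OV, and CESA5 held 35.3% in HEART. CESA5 held 8.98% of the group in OV, 7.20% in GLOB, 6.31% in MG and 15.4% in DS. CESA2 held 31.7% of it in GLOB and 31.6% in MG, and between 16.2% and 21.4% in the other stages.

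**Figure D3:**
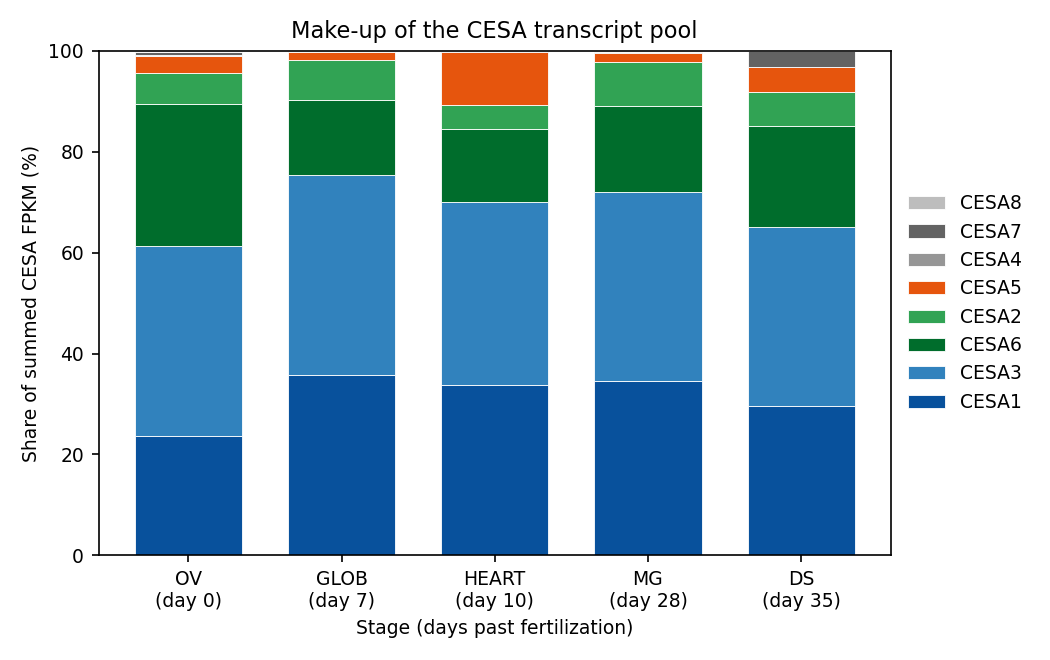
Share of the summed CESA FPKM as deposited (%) held by each locus at each stage, stacked to 100%. CESA1 and CESA3 (blue) make up 75.3% in GLOB at the most and 61.3% in OV at the least, CESA5 (orange) makes up 10.5% in HEART, and CESA7 (dark grey) is visible in DS with 3.27%.

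In FPKM as deposited, more copies were lower from MG to DS than in any other step between consecutive stages. On a common sum the step between HEART and MG had the most lower copies, but the median of all genes was also lower there, at -0.96. From OV to GLOB, 4 of the 23 copies that reached 1 FPKM were higher and 0 lower, where 15.8% and 11.0% of all genes considered were. The 4 were CESA1 BnaN01g05330 and BnaN11g06330, CESA2 BnaN11g00500 and CESA3 BnaN02g01480, and with each stage at a common sum, or under quantile normalization, 2 copies were higher. From GLOB to HEART, 2 were higher and 0 lower, against 4.89% and 2.50% of all genes. Set against HEART, MG had 3 copies higher and 5 lower, shares of 13.0% and 21.7%, close to the 17.4% and 22.4% of all genes. On a common sum 0 were higher and 15 lower in that step, and relative to the median of all genes on that sum 4 were higher and 5 lower. The shares of all genes counted as higher or lower on a common sum are not given here. DS had 2 copies above MG (8.70%) and 15 below it (65.2%), against 19.0% and 21.3% of all genes. On a common sum 2 were above and 10 below, and relative to the median of all genes on that sum 2 and 12. Between the end points, 1 copy was higher in DS than in OV and 11 were lower (47.8%), against 23.1% and 25.5% of all genes. The steps share stages and so are not independent of each other. The 23 copies include those that passed 1 FPKM through the stage in which they were high.

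The median log2 difference of the 23 copies to the stage before was 0.19 for GLOB, 0.18 for HEART, -0.21 for MG and -1.38 for DS. Over all genes considered it was 0.01 or less for GLOB and HEART, -0.09 for MG and -0.01 for DS. Of the 15 copies lower in DS than in MG, 7 belong to CESA1 and CESA3 and 8 to the CESA6-like group. The CESA7 copy BnaN13g08400 and the CESA5 copy BnaN09g34840 were the 2 that were higher. The size of the later steps depended on how stages were scaled. With each stage brought to a common sum, the family's log2 difference was -1.88 from HEART to MG (-0.53 as deposited) and -0.99 from MG to DS (-1.71 as deposited). The median of all genes on that sum was -0.96 and 0.24 in these steps, against -0.09 and -0.01 as deposited.

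Of the copies with a chromosome, 19 lie on A and 22 on C chromosomes, and 4 are on unplaced sequence. C copies held 44.7% of the placed CESA FPKM in OV and 39.6% in GLOB, then 41.5% in HEART, 40.3% in MG and 37.7% in DS. Over all placed genes the C share was 48.7%, 48.0%, 48.1%, 50.1% and 48.9% at these stages. The loci differed from each other. The C share of CESA3 was from 16.3% in DS to 31.3% in OV, and the highest copy, BnaN02g01480, lies on A. That of CESA1 lay between 43.7% and 56.0%, and that of CESA2 between 40.7% and 95.2%. The C share of CESA6 was 35.4% in DS and 53.4% in OV.

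Copies on same-numbered chromosomes (C chromosomes 11 to 19 beside A chromosomes 1 to 9) formed 10 pairs with at least 1 copy at 1 FPKM or more in a stage, when the highest copy of each locus on a chromosome was taken. In 3 of them the C copy never reached 1 FPKM. CESA3 BnaN12g01180 was at 0.122 FPKM in OV beside 28.4 FPKM for its A counterpart BnaN02g01480, and the C minus A difference on the log2(FPKM + 1) scale lay between -4.44 in DS and -6.18 in GLOB. For CESA3 BnaN15g49430 and BnaN05g31590 it was lowest in MG, at -3.68. For CESA5 BnaN19g12490, listed at 0 throughout, and BnaN09g34840 it was -2.23 in DS. The other 7 pairs had both copies at 1 FPKM or more in a stage, a condition that leaves out pairs with a near-silent copy. In OV, 0 of these 7 differed by 1 or more. In GLOB 1 pair was higher on C, in HEART 2, in MG 1, and in DS 2 were higher on C and 1 on A. The same count over the pairs of all genes was not made. The CESA2 pair was higher on C in GLOB, HEART and DS, by 1.92, 2.55 and 2.57. The CESA5 pair was higher on C in HEART alone (1.15), and the CESA3 pair in MG and DS (1.11 and 1.19). The CESA6 pair of chromosomes 19 and 9 had opposite signs at the ends, at -1.13 in DS and 0.87 in OV (C minus A). For CESA1, CESA7 and the other CESA6 pair the difference stayed below 1 at every stage. Values of single copies are uncertain where copies are nearly identical, since how their common reads were assigned is not given in the sources used here.

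**Figure D4:**
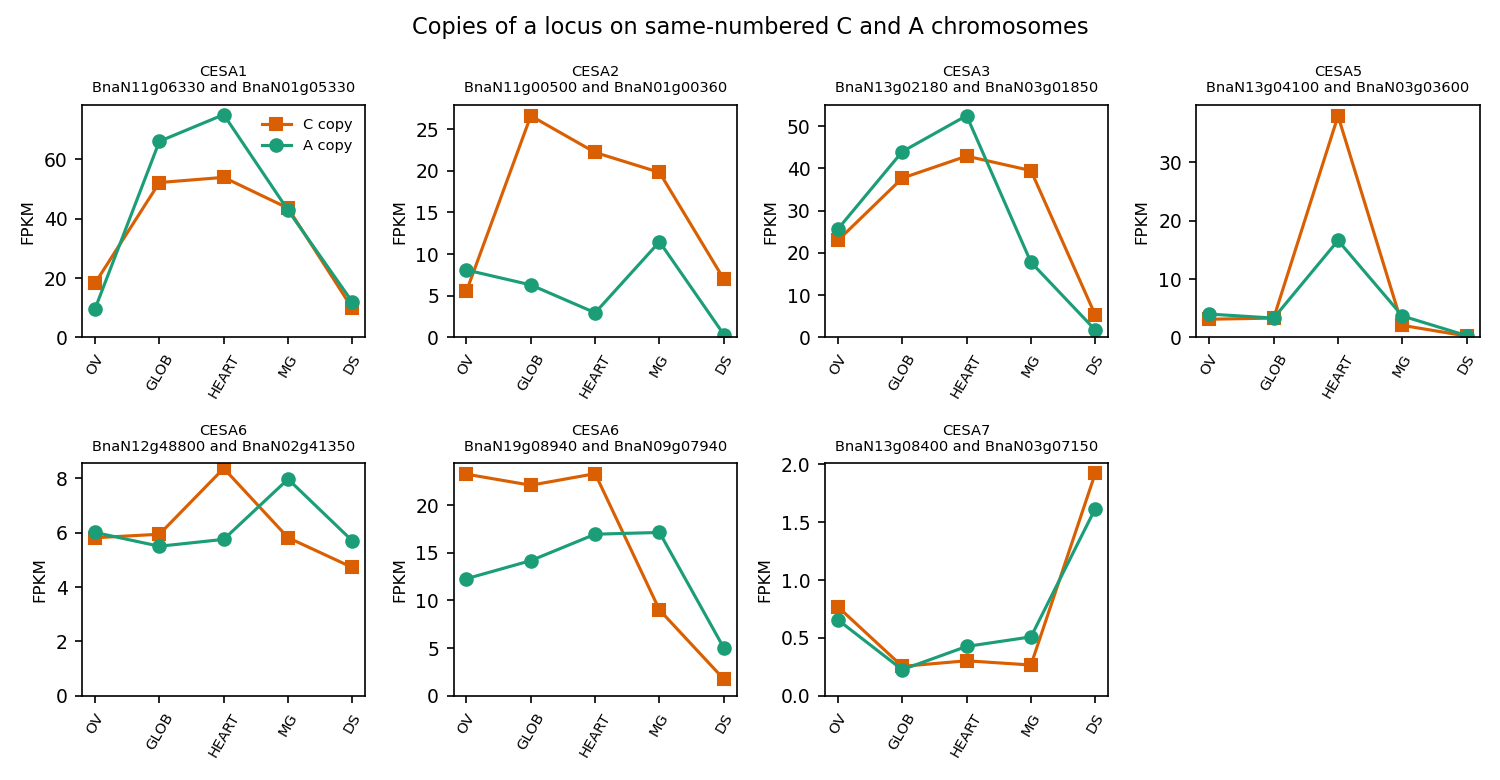
FPKM of the C copy (orange squares) and the A copy (green circles) of the 7 same-numbered pairs in which both copies reached 1 FPKM, over the 5 stages, each panel with its own axis from 0. The CESA2 copies part from GLOB onwards (26.6 FPKM on C and 6.30 on A in GLOB), and the CESA5 copies peak together in HEART at 37.9 and 16.6 FPKM.

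Most partner loci of the cellulose synthase complex had their highest sum in HEART, as the CESA family did. Of 19 loci listed, 17 had a row, with 88 copies, of which 56 reached 1 FPKM, and 11 of the 17 loci had their highest sum in HEART. The 11 include CTL2, at only 0.0747 FPKM in HEART, and COBL4, at 14.1 FPKM in HEART and 11.5 in OV. The same count over all loci was not made. Of the 56 copies, 16 were higher and 0 lower in GLOB than in OV, where 15.8% and 11.0% of all genes were. In HEART 3 were higher and 0 lower than in GLOB, where 4.89% and 2.50% of all genes were, so the higher count is near the share of all genes. In MG, 1 was above its HEART value by the threshold and 23 below, against 17.4% and 22.4% of all genes. In DS, 5 were above their MG value and 26 below, against 19.0% and 21.3% of all genes. CTL1, a chitinase-like protein needed for cellulose deposition, was at 105 FPKM in OV, then 978 in GLOB and 1287 in HEART, with 530 in MG and 78.5 in DS. COBL2, a COBRA-like protein known from cellulose deposition in the seed coat mucilage, was at 25.5, 382, 682, 22.3 and 0.981 FPKM. CC1, which links the complex to microtubules, was at 35.9, 90.5, 96.3, 58.5 and 12.9 FPKM. The membrane-bound endoglucanase gene KOR1 was at 27.7, 66.2, 81.9, 62.0 and 34.3 FPKM. COBL2 had a HEART minus GLOB difference of 0.83 and CESA5 one of 2.72, and COBL2 was already at 382 FPKM in GLOB. SHOU4, a regulator of the trafficking of the complex, went the other way in late seeds, with 62.4 FPKM in DS and 21.8 in MG (singled out after its values were seen).

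**Figure D5:**
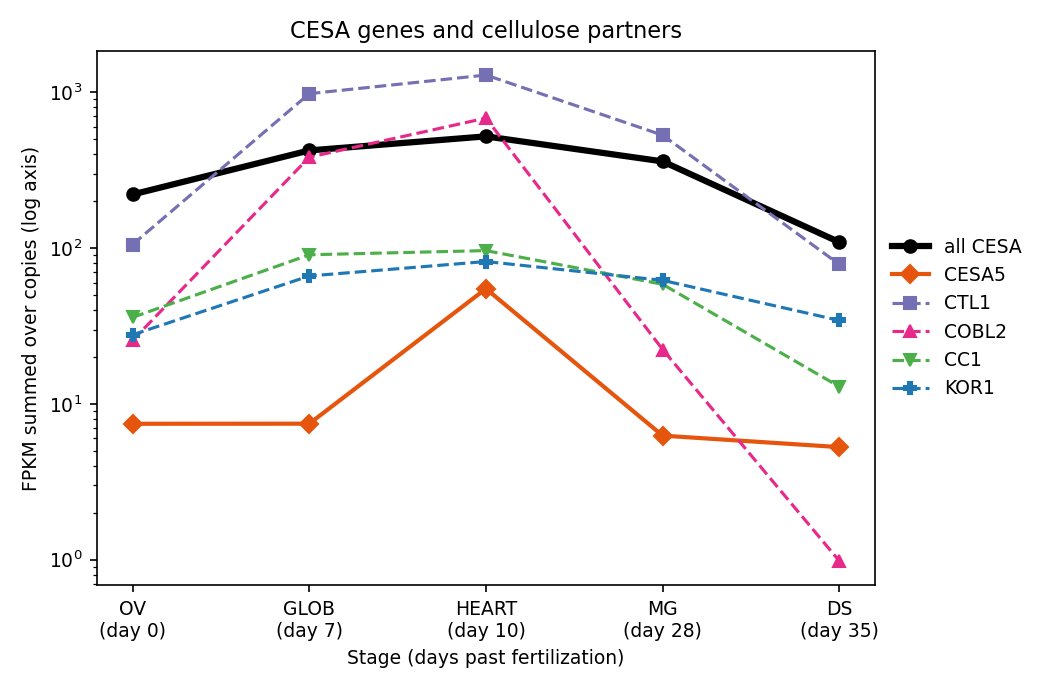
FPKM summed over copies (log axis) at the 5 stages for all CESA genes, CESA5 and the 4 most abundant partner loci (CTL1, COBL2, CC1 and KOR1). All 6 lines are highest in HEART, and COBL2 has the widest range, with 0.981 FPKM in DS and 682 in HEART.

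Genes that work with CESA4, CESA7 and CESA8 in xylem walls went both ways. Of 12 loci for xylan, lignin and fasciclin-like proteins, 50 copies had a row and 17 reached 1 FPKM. In MG, 6 of the 17 stood above and 7 below their HEART values, where 17.4% and 22.4% of all genes did. IRX15L, a xylan gene, was at 0.348 FPKM in OV, then 1.52 in GLOB and 0.798 in HEART, with 134 in MG and 2.84 in DS. The glycosyltransferase gene IRX14 was at 12.3, 19.4, 27.5, 5.81 and 8.57 FPKM, and PARVUS, which acts early in xylan synthesis, at 2.75, 18.3, 15.8, 12.1 and 3.74 FPKM. The laccase gene LAC4, for lignin, was at 0.0429 FPKM in MG, against 13.3 in HEART. Of 10 regulators of secondary walls, 6 of 47 copies reached 1 FPKM, and 5 of those were KNAT7. KNAT7, a homeodomain factor, was at 8.72 FPKM in OV and 43.2 in GLOB, then 49.3 in HEART, 15.0 in MG and 0.998 in DS. MYB46 and MYB83, activators of the secondary-wall CESA genes in Arabidopsis, summed to at most 0.352 and 0.181 FPKM at any stage. NST1, the fibre wall regulator, reached 0.392 FPKM at most, NST3 reached 1.20 FPKM in OV and SND2 reached 1.24 in MG.

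The loci with the courses most like those of the CESA genes were sought among 12392 loci with at least 10 FPKM in a stage. The measure was the distance between log2(FPKM + 1) profiles over the 5 stages, each centred on its own mean. Nearest to CESA1 plus CESA3 were AT5G35080 (distance 0.28), AT4G27180, a kinesin gene (0.28), and AT3G29635 (0.29). The median distance of all loci to that profile was 2.62. AT5G35080 was at 67.1 FPKM in OV, then 127 in GLOB and 147 in HEART, with 120 in MG and 31.9 in DS. Nearest to CESA5 were AT5G14740 (0.22), which encodes a carbonic anhydrase, AT1G76110 (0.37) and AT2G03360 (0.41), with a median of 3.11 over all loci. AT5G14740 was at 2.26, 1.80, 20.4, 1.38 and 1.27 FPKM from OV to DS. Nearest to the summed secondary-wall loci were AT5G16260 (0.10), AT1G17070 (0.14) and AT3G18610 (0.14), with a median of 2.05. At the low level of those loci the pseudocount flattens the profile, so that match is a loose one. CESA5 took the place of CESA9, which had no row, after its values were seen.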

How the data were processed

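Polyadenylated RNA of whole ovules and seeds was sequenced as single-end reads of 100 bases, per the labels. Per the labels' design text, the authors trimmed reads with Trimmomatic (version 0.36), aligned them with HiSat2 to the DH12075 genome and quantified them with Cuffquant and Cuffdiff. The submitters' processing notes also name FastQC, TopHat2 and Cuffnorm. The deposited values are FPKM, 1 per gene and stage. How the authors combined libraries, and the annotation version, are not given in the sources used here. The table holds 2 further value columns that match no sample described here and were not used.

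Copies were found by their paired Arabidopsis locus, and symbols were attached from general knowledge of Arabidopsis nomenclature. Of the CESA copies, 19 share a Darmor identifier with another CESA copy (9 identifiers), so not every copy has a Darmor gene of its own. Each chromosome number was given the letter most of its paired Darmor identifiers carry. Sums, log2(FPKM + 1) differences (threshold 1, over 49417 genes at 1 FPKM or more in a stage) and shares were computed with Python (version 3.11.15) and pandas (version 2.3.3). With 1 value per stage no model, standard deviation or p-value was possible, so the results are descriptions. The counting was tested on simulated data. Members and lists were chosen with earlier results of these data known. Named genes are all CESA loci, their highest copies and at most 4 of the most abundant loci per list. SHOU4, COBL4, CTL2, MYB46, MYB83, BAN, the named seed coat markers (apart from SBT1.7), ZOU and the tracheary markers fall outside that rule. They were named after their values were seen. Of 34 Darmor identifiers, 0 matched the RefSeq gene table of cultivar Da-Ae, and no sequences or coordinates were used. Alternatives were other scalings, a pseudocount of 0.1, other filters, the highest or the placed copies only, and the Darmor letter.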

Additional observations from a re-analysis of the deposited data

How the results depend on the processing

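No paired analysis was possible because the table holds a single value for each stage, without library values, and leaving out replicates was not run for the same reason. Counts and shares are described as moved when they changed by more than 1.5 times, and log2 differences when they changed by more than 0.58. For the C subgenome shares the limit was 5 percentage points. The differences relative to the median of all genes on a common sum, the shares under quantile normalization and the pairs with only 1 copy at 1 FPKM were added after seeing the data. Among results that answer a comparison, 158 stayed and 37 moved under the alternatives. Among the differences of single loci and classes, counted apart, 258 stayed and 42 moved, 27 of the latter on a common sum. They include CESA1 and CESA3 from HEART to MG, at -1.83 and -1.82 on that sum (-0.49 for each as deposited). No difference of 1 or more changed sign. Smaller differences did change sign with the scaling, among them those of CESA5, CESA6 and the CESA6-like sum in GLOB against OV. Under the median-of-ratios rescaling all 10 counts of CESA copies stayed.

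On a common sum, 2 copies were higher and 1 lower in GLOB than in OV (4 and 0 as deposited), and 0 higher and 15 lower in MG than in HEART (3 and 5 as deposited). The whole family then differed by -1.88 from HEART to MG, -0.99 from MG to DS and -2.04 from OV to DS (-1.01 as deposited). The CESA2 sum, 0.30 higher in MG than in HEART as deposited, was 0.99 lower there. Relative to the median of all genes on that sum, 1 copy was lower from OV to GLOB. Under quantile normalization 2 copies were higher from OV to GLOB and 3 from OV to DS (1 as deposited), the secondary-wall share in HEART was 0.111% (0.206%), and the CESA3 sum was 0.41 higher in GLOB than in OV (1.00 as deposited). With a pseudocount of 0.1, 3 copies were lower from OV to GLOB and 1 from GLOB to HEART, and 5 were higher both from MG to DS and from OV to DS. With a mean FPKM of at least 5, 0 copies were higher in DS than in MG or OV, since low copies were left out. With pairs in which 1 copy reached 1 FPKM, 2 were higher on A in each of OV, GLOB, HEART and MG (0 with both copies at 1 FPKM) and 4 in DS (1). With the highest copy of each locus only, the CESA6-like share in DS was 19.0% (31.5% over all copies) and the secondary-wall share in OV was 1.57% (1.01%). The share of CESA1 plus CESA3 was then 73.3% in GLOB, 77.2% in MG and 76.8% in DS (75.3%, 72.0% and 65.2% over all copies). None of these 3 moved by the rule above, but GLOB no longer had the highest share.

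Among the related lists, with higher and lower copies counted as one number, the partners numbered 48 from HEART to MG on a common sum (24 as deposited). The median of all genes on that sum was -0.96 in this step. The same counts over all genes under the other settings are not given here, so these numbers describe the settings and not the lists. The CSLD genes numbered 4 from OV to GLOB with the pseudocount of 0.1 and 3 on a common sum (1 as deposited), 2 from GLOB to HEART with that pseudocount (1), and from MG to DS 2 with it and 0 on a common sum (1). With the pseudocount the xylem wall genes numbered 6 from GLOB to HEART (2), 12 from MG to DS (6) and 11 from OV to DS (5), and the regulators 1 from GLOB to HEART (0) and 6 from OV to DS (3). On a common sum the regulators numbered 2 from MG to DS (5) and 5 from OV to DS (3). The cause of these moves was not tested beyond the construction of each setting.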

Other observations

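The CSLD genes, the closest relatives of the CESA family, make up a separate group known in Arabidopsis for tip-growing cells and for the new wall of dividing cells. All 6 loci had a row, with 27 copies, of which 11 reached 1 FPKM. CSLD5, which acts in cell division in Arabidopsis, was at 17.9 FPKM in OV, then 11.7 in GLOB and 10.9 in HEART, with 0.457 in MG and 0.280 in DS. It was thus highest in the ovule, unlike CESA1, CESA3, CESA5 and CESA6. CSLD2 was at 10.8, 17.5, 27.5, 7.50 and 5.53 FPKM, and CSLD3 at 7.33, 11.8, 17.9, 9.33 and 5.50 FPKM, both highest in HEART. CSLD6 was at 0.125 FPKM in MG and 2.52 in OV. From HEART to MG 1 of the 11 copies was higher and 6 were lower, where 17.4% and 22.4% of all genes considered were.

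A CESA5 copy and a CESA3 copy differed from their loci in late seeds. CESA5 BnaN09g34840 had 3.70 FPKM in DS and 0.383 in MG, while the CESA5 copy BnaN03g03600 had 0.309 in DS and 3.67 in MG. CESA3 BnaN05g31590 held 16.1% of its locus in DS and 2.35% in HEART. Both were singled out after their values were seen.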
